A study of Mus musculus with 18 samples.

Results

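Control-microbiota (Con-FMT) livers came from male ICR mice, 10 weeks old, that had been injected with streptozotocin (STZ) and then given the gut microbiota of control donors by mouth, a fecal microbiota transplantation (FMT). They were compared with STZ livers, from mice of the same strain, sex and age that had the same injection and no transplant. All genes were taken that reached 1 RPKM or more (reads divided by transcript length and by library size) in 3 or more of the 6 libraries of the 2 groups, which gave 10356 of the 19057 gene symbols in the table. Each group had 3 mice and 1 liver library per mouse. The comparison asks what a transplant from healthy donors did to the diabetic liver. Livers of 3 control mice (Con), which had regular diet plus saline, are used beside them. So are livers of 3 STZ mice given microbiota from donors fed alginate oligosaccharide at 10 mg/kg (A10-FMT). These 4 groups share the strain, the sex and the age. The transplant was luminal content of the small intestine pooled over the donors of a group, so every Con-FMT mouse had material from the same pool. It was given once daily for 2 weeks, and the mice were then kept for another 3 weeks before the livers were taken. The sources used here do not say whether STZ mice received a sham inoculation, so the dosing itself and the microbiota cannot be told apart.

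STZ destroys the insulin-producing beta cells of the pancreas. Without insulin the liver makes glucose and ketone bodies, releases FOXO factors from the hold of AKT so that genes such as Igfbp1 are transcribed, and takes up the fatty acids that adipose tissue sets free, which switch on PPAR-alpha targets. Liver also loses much of its sensitivity to growth hormone in insulin deficiency, and in male mice the growth hormone pulses keep a male pattern of cytochromes, sulfotransferases and major urinary proteins. Microbial products reach the liver through the portal vein, so gut bacteria can act on bile acid, xenobiotic and innate immune genes there.

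The 3 STZ livers were not alike. On the first principal component of the 6 libraries, which held 64.1% of the variance of log2(RPKM + 1), STZ mice 1 and 2 lay at -36.5 and -36.3. STZ mouse 3 lay at 19.9, among the Con-FMT mice at 1.13, 30.3 and 21.5. The distance of STZ mouse 3 from the Con-FMT mean was 30.2, against 57.6 and 59.3 for the other two and 15.8 to 25.9 for the Con-FMT mice themselves. In 63.6% of the genes its value was nearer to the Con-FMT mean than to the mean of the other STZ mice. By the same measure STZ mice 1 and 2 had 43.6% and 33.4%. The likeness was not particular to Con-FMT. The Pearson correlation of STZ mouse 3 was 0.978 to 0.987 with Con-FMT mice and 0.981 to 0.983 with A10-FMT mice. With Con mice it was 0.961 to 0.970, against 0.901 to 0.913 for STZ mice 1 and 2. Con-FMT mouse 1 was the Con-FMT library nearest to STZ mice 1 and 2. Summed RPKM were 631126 to 684659 in STZ and 673423 to 709679 in Con-FMT, with 10064 to 10397 genes at 1 RPKM or more per library, and steps between the lowest values of 35 genes put the relative depth of these 6 libraries between 0.963 and 1. Calls without STZ mouse 3 are therefore given beside the counts of the gene groups. This mouse was singled out after its nearness to Con-FMT was seen, so leaving it out favours calls. These counts add no separate evidence for a difference. Leaving out any other single mouse gave 0 to 17 calls over all genes.

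**Figure D1:**
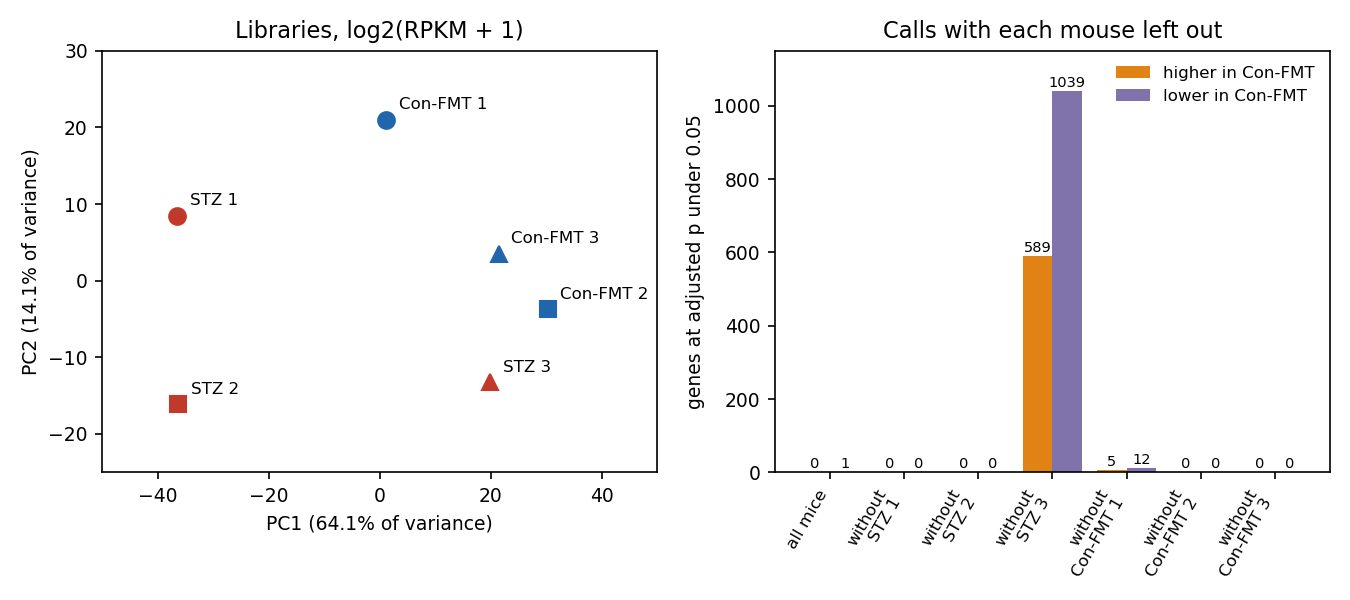
Left, principal components 1 and 2 of log2(RPKM + 1) over the 10356 genes for the 3 STZ (red) and 3 Con-FMT (blue) libraries, with STZ mouse 3 at 19.9 on the first component and the other two STZ mice at -36.5 and -36.3. Right, the number of genes at an adjusted p under 0.05 that were higher (orange) or lower (purple) in Con-FMT, with all mice and with each mouse left out in turn. Without STZ mouse 3 it was 589 higher and 1039 lower.

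Id1 was the one gene that passed the test, and it fell. Id1 encodes an inhibitor of basic helix-loop-helix factors and is a direct target of BMP signalling through SMAD proteins (chromosome 2, 152736251 to 152737410, GRCm38). In the order of mouse 1, 2 and 3, which holds for all values below, it was at 17.2, 14.0 and 11.2 RPKM in STZ and at 5.54, 3.92 and 3.07 RPKM in Con-FMT. The groups did not overlap, and the Con-FMT livers were near the 3.77, 4.06 and 3.9 RPKM of Con. The mean was 3.39-fold lower in Con-FMT, a log2 change of -1.56 (SE 0.18, limma adjusted p 0.0246) on the scale of log2(RPKM + 1), which understates changes of genes near 1 RPKM. With 1 mouse left out at a time the adjusted p of Id1 ran from 0.000456 to 0.146. It was lowest without STZ mouse 3, stayed under 0.05 without Con-FMT mouse 1 and was over 0.05 without any one of the other four.

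Id1 made up 0.00966% of the genes tested. At an adjusted p under 0.1 there were 368 genes, 144 higher and 224 lower. Before adjustment, 867 genes (8.37%) were higher and 1229 (11.9%) lower in Con-FMT with a p under 0.05. All 3 Con-FMT mice lay above all 3 STZ mice in 862 genes (8.32%) and below them in 977 (9.43%). A 2-fold difference was reached by 178 genes, 85 higher and 93 lower, and 60 of them did not overlap, 18 higher and 42 lower. Without STZ mouse 3 the test called 1628 genes, 589 higher (5.69%) and 1039 lower (10.0%). The split of these calls moved with scaling, to 936 higher and 964 lower when the libraries were also scaled by median ratios.

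Among the genes with a 2-fold difference and no overlap, 8 higher and 8 lower genes with the smallest p were taken. None of these passed the adjusted threshold but Id1, and the other 15 had an adjusted p between 0.0552 and 0.0865. Without STZ mouse 3 all 16 were called, but they were picked by their p in these same libraries and that omission favours calls. With 1 mouse left out at a time, the largest limma adjusted p of each of the other 15 lay between 0.182 and 0.265. Inhbe encodes the beta-E subunit of activin, a protein that hepatocytes secrete (chromosome 10, 127348857 to 127354411). It was at 0.81, 0.8 and 6.37 RPKM in STZ and at 12.8, 20.7 and 13.9 RPKM in Con-FMT, with 11.2, 14.9 and 13.1 RPKM in Con. STZ mouse 3 was between the other two STZ mice and the transplanted mice, and the log2 difference was 2.51 (SE 0.44). Csrp3, a LIM-domain protein best known from striated muscle (chromosome 7, 48830398 to 48848033), was at 3.54, 2.48 and 8.24 RPKM in STZ and 17.98, 19.5 and 15.9 RPKM in Con-FMT, a log2 difference of 1.83 (SE 0.28). The other higher genes of this choice included an enzyme of steroid metabolism, Akr1c6, at 364, 247 and 567 RPKM in STZ and 733, 766 and 755 RPKM in Con-FMT. Raet1e, a stress ligand of the NKG2D receptor of natural killer cells, was at 1.28, 2.69 and 2.06 RPKM in STZ and 5.41, 6.82 and 5.57 RPKM in Con-FMT. Here STZ mouse 3 was not the highest of its group, unlike in Inhbe, Csrp3 and Akr1c6. Nat8f2 of the N-acetyltransferase 8 family, the hydrolase-like Hdhd3 and the predicted gene Gm6958 had log2 differences of 1.34, 1.19 and 1.85.

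Car1, carbonic anhydrase 1, was the eighth higher gene, at 0.79, 0.65 and 6.03 RPKM in STZ and 13.2, 7.09 and 7.51 RPKM in Con-FMT. It is abundant in red blood cells, and red cell transcripts also differed between the groups. Of 11 erythroid markers 6 could be tested, 3 of them were higher at an unadjusted p under 0.05 and 0 lower, and their median log2 difference was 1.79. Without STZ mouse 3, 2 were called higher. The markers summed to 613 to 2614 RPKM in STZ and to 3648 to 9977 RPKM in Con-FMT, which did not overlap. Their sums were 1582 to 3124 RPKM in Con and 1854 to 3553 RPKM in A10-FMT, so the lowest Con-FMT sum was only just above the highest of A10-FMT. Of the 6 tested markers 1 lay above STZ without overlap, against 8.32% of all genes. Between Con-FMT and A10-FMT 0 of the 6 had an unadjusted p under 0.05 in limma, against 2.84% of all genes. Car1 itself was at 11.3, 10.9 and 9.11 RPKM in A10-FMT and 5.37, 7.37 and 6.38 RPKM in Con. Hba-a1, an alpha globin, was at 404, 1626 and 1545 RPKM in STZ and 6455, 2214 and 2715 RPKM in Con-FMT. Alas2, the first enzyme of haem synthesis in red cell precursors, was at 3.59, 9.75 and 43.4 RPKM in STZ and 38.1, 43.6 and 55.5 RPKM in Con-FMT, so STZ mouse 3 lay within the transplanted mice. The part of red cells in the Car1 difference was not tested, and in whole liver a change in the number of cells of a type and a change of RNA per cell cannot be told apart.

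Lepr had the largest difference of the 8 lower genes. It encodes the leptin receptor, which in liver includes short forms and a soluble form that circulates (chromosome 4, 101717404 to 101815352). It was at 46.3, 42.1 and 21.7 RPKM in STZ, at 9.29, 1.14 and 5.15 RPKM in Con-FMT and at 0.14, 0.14 and 0.17 RPKM in Con. Con-FMT levels were below those of STZ without overlap and above those of Con without overlap, and the log2 difference from STZ was -2.81 (SE 0.46, limma adjusted p 0.0552). Txnip, which binds thioredoxin, restrains glucose uptake and is induced by glucose (chromosome 3, 96557957 to 96561883), was at 65.5, 62.3 and 38.3 RPKM in STZ, 22.7, 14.9 and 15.8 RPKM in Con-FMT and 9.22, 14.3 and 12.6 RPKM in Con. Its mean was 3.11-fold lower in Con-FMT than in STZ, a log2 difference of -1.57 (SE 0.26, limma adjusted p 0.0556). Abcc4, a basolateral pump that exports bile acids when they accumulate, was at 5.09, 4.98 and 1.96 RPKM in STZ and 1.47, 0.56 and 0.65 RPKM in Con-FMT. Its STZ mouse 3 was the lowest of the STZ group, as in Lepr, Txnip and Id1. Arl5b, a small GTPase of membrane traffic, was at 8.37, 10.5 and 6.69 RPKM in STZ and 2.82, 4.14 and 3.96 RPKM in Con-FMT. Cnst, which carries connexins to the cell surface, the Myc family member Mycl and the immediate-early gene Ier3 had log2 differences of -1.12, -1.09 and -1.04.

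**Figure D2:**
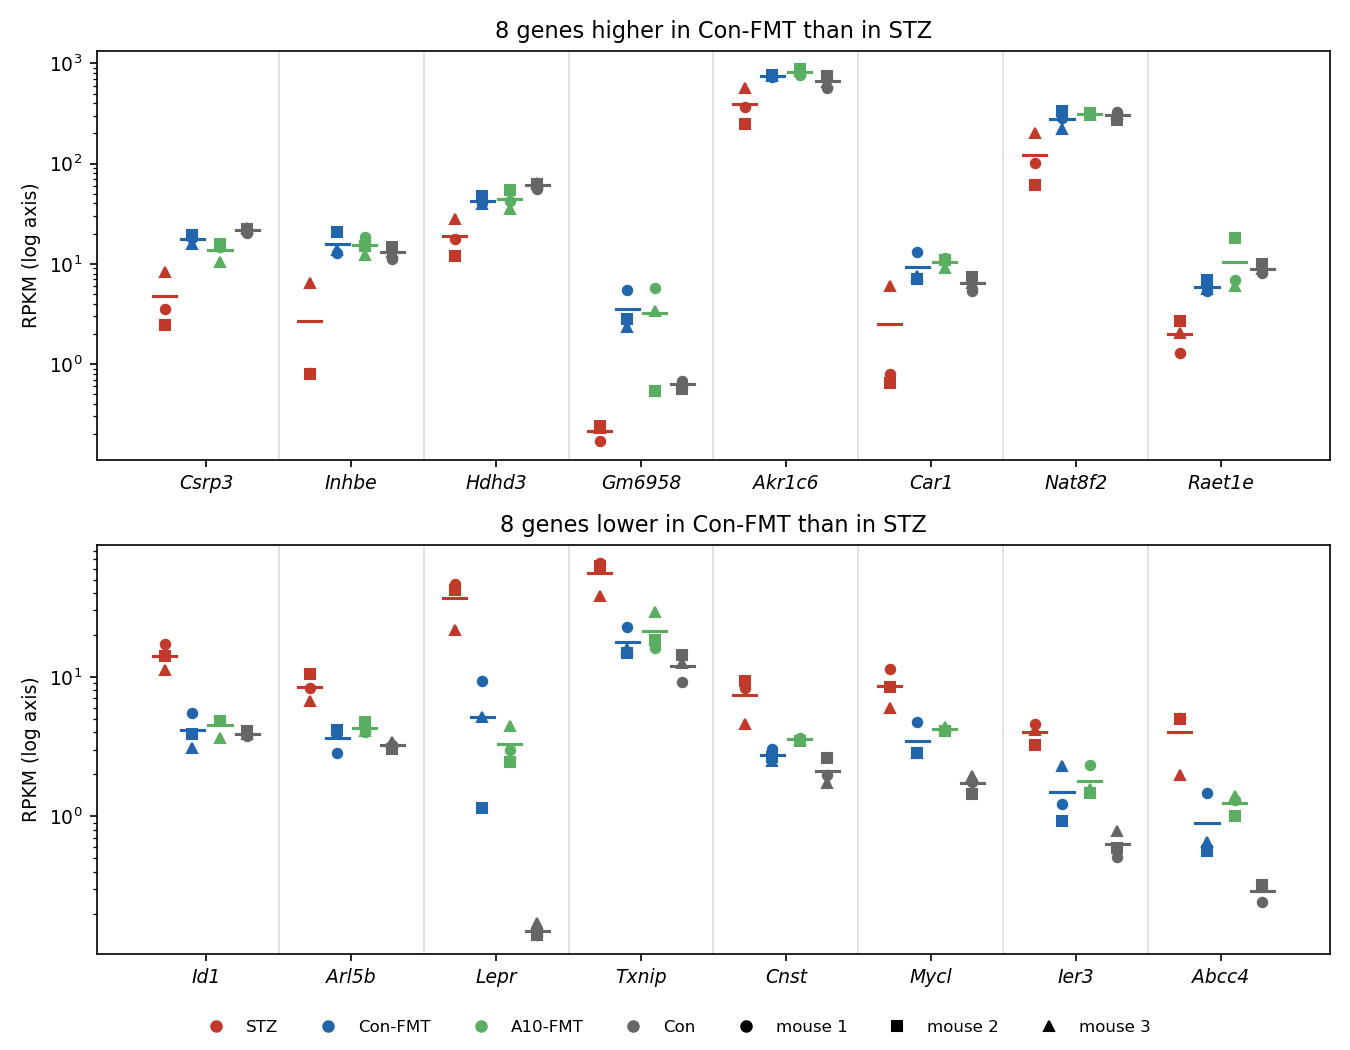
RPKM on a log axis of the 8 higher (top) and 8 lower (bottom) genes with a 2-fold difference, no overlap and the smallest p, in STZ, Con-FMT, A10-FMT and Con livers, where a symbol is a mouse and a line the mean of 3. In the lower genes Con-FMT lies between STZ and Con or beside Con, as Lepr shows with 9.29, 1.14 and 5.15 RPKM between 46.3, 42.1 and 21.7 in STZ and 0.14, 0.14 and 0.17 in Con.

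Groups of genes are described by how many of their tested members were higher or lower at an unadjusted p under 0.05, read against 8.37% higher and 11.9% lower among all 10356 genes, and by their median log2 difference, against -0.03 for all genes. Members of a group are co-regulated and are not independent, and no test was made on a group as a whole. Counts of calls without STZ mouse 3 are read against 5.69% higher and 10.0% lower. Counts of genes without overlap are read against 8.32% higher and 9.43% lower. Only Id1 was called in any group when all mice were used.

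**Figure D3:**
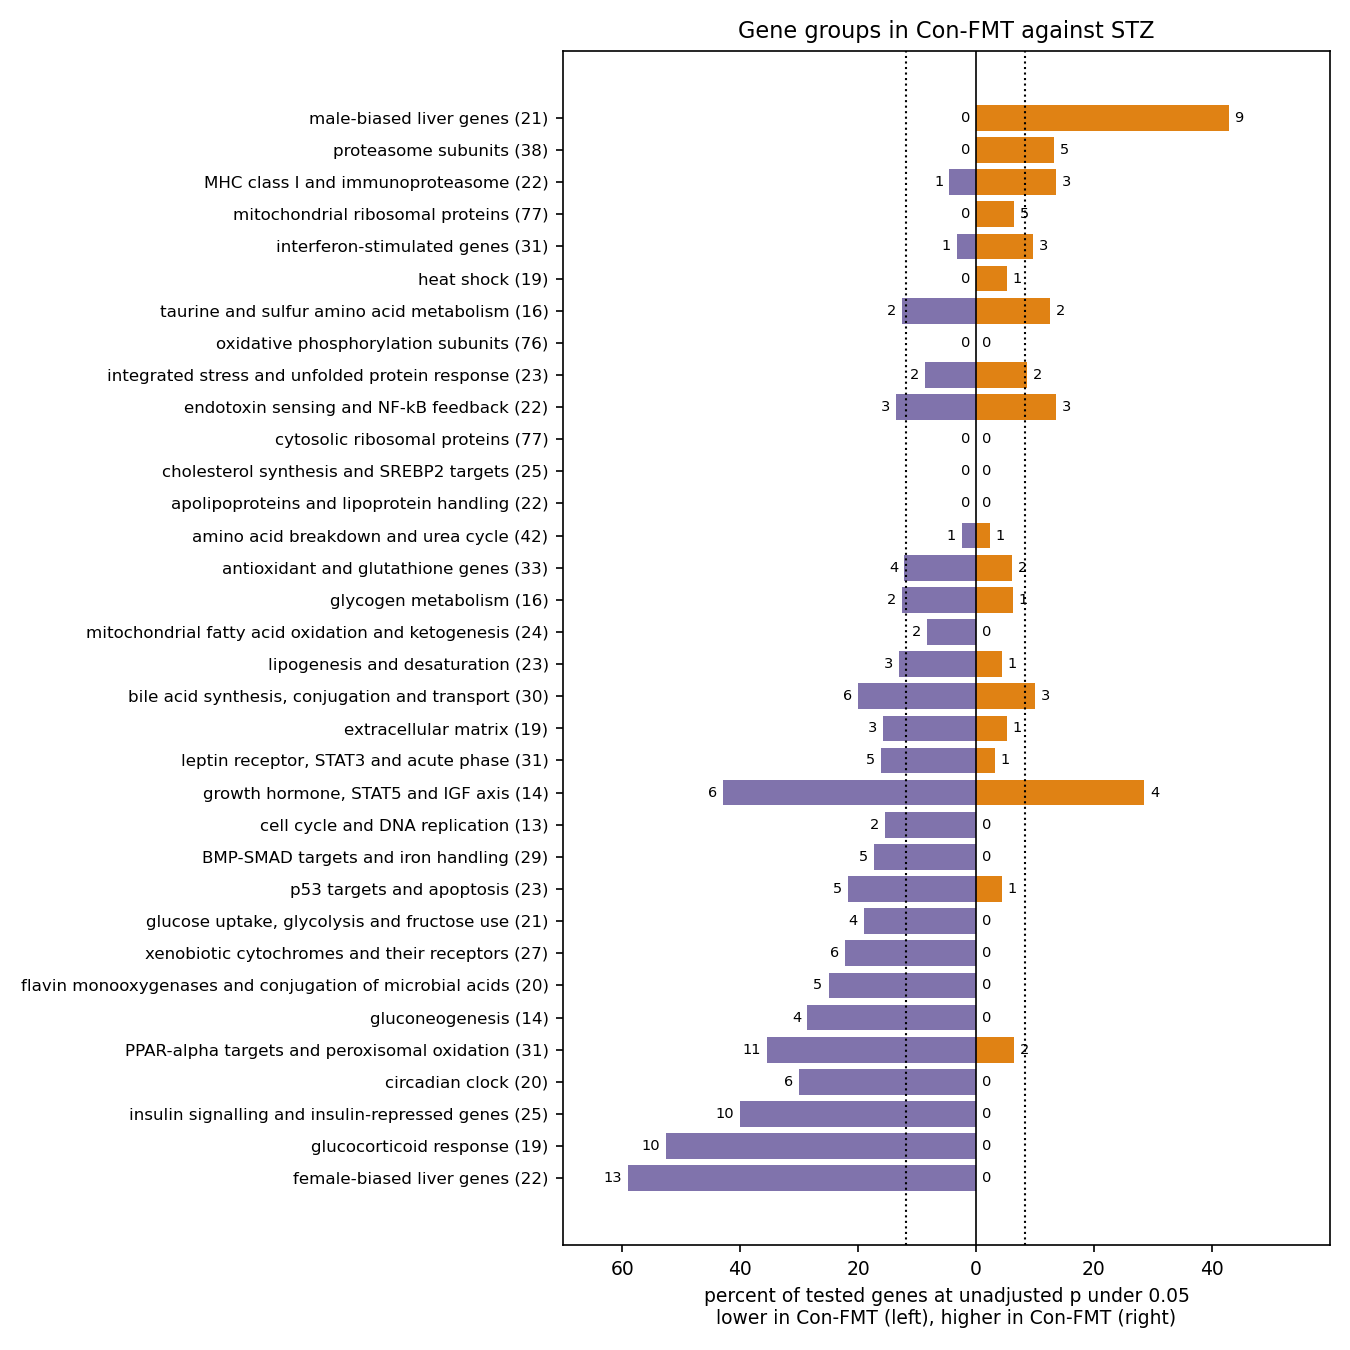
Percent of the tested genes of each group with an unadjusted p under 0.05 that were lower (left, purple) or higher (right, orange) in Con-FMT than in STZ, with the number of such genes at the bar and the number tested in brackets. Groups with 10 or more tested genes are shown. Dotted lines mark all 10356 genes, 11.9% lower and 8.37% higher, and the female-biased genes (13 of 22 lower) and male-biased genes (9 of 21 higher) lie at the ends.

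Of 25 tested genes of the insulin pathway and genes that insulin represses, 10 were lower and 0 higher in Con-FMT at an unadjusted p under 0.05. The difference was negative in 21 and positive in 4, 8 lay below the STZ mice without overlap, and the median log2 difference was -0.30. With STZ mouse 3 left out, 10 were called lower and 0 higher. Igfbp1, a secreted binding protein that insulin rapidly shuts off, was at 334, 976 and 190.3 RPKM in STZ, 111, 49.1 and 52.0 RPKM in Con-FMT and 18.1, 24.0 and 21.8 RPKM in Con. The mean was 7.08-fold lower in Con-FMT than in STZ, with a log2 difference of -2.57 (SE 0.54, limma adjusted p 0.0703), and all Con-FMT mice were still above all Con mice. Irs2, the docking protein of the insulin receptor that FOXO factors induce in fasting, was at 7.71, 11.2 and 6.62 RPKM in STZ and 4.74, 3.12 and 3.49 RPKM in Con-FMT, a log2 difference of -0.98 (SE 0.20, limma adjusted p 0.0699). Eif4ebp3, a repressor of cap-dependent translation, was at 114, 155 and 107 RPKM in STZ and 66.0, 35.6 and 60.9 RPKM in Con-FMT. STZ mouse 3 stayed on the STZ side of the transplanted mice in these genes. Smaller differences of the same sign without overlap were found for Foxo3 and Foxo1, which encode the FOXO factors themselves, with log2 differences of -0.48 and -0.39. Pik3ca, the catalytic subunit of the insulin-stimulated lipid kinase, was at 6.01, 6.33 and 5.93 RPKM in STZ and 4.61, 4.68 and 4.73 RPKM in Con-FMT. The stress-induced mTORC1 inhibitors Ddit4 and Sesn1 had log2 differences of -1.41 and -0.71. For Ddit4 STZ mouse 2 stood out, with 7.95, 33.6 and 5.98 RPKM in STZ against 5.02, 1.88 and 5.7 RPKM in Con-FMT.

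FOXO factors bind short sequences in the promoters of insulin-repressed genes, so the promoters of 3 of the lower genes are shown, each as the 300 bases around the RefSeq start in GRCm38.p6, read 5′ to 3′ on the strand of the gene. Igfbp1 lies at chr11:7197537-7197836 on the plus strand, Irs2 at chr8:11008880-11009179 on the minus strand and Txnip at chr3:96557707-96558006 on the plus strand. Capitals mark CAAAACA, the core of the insulin response element, in Igfbp1, its reverse complement TGTTTTG in Irs2 and the forkhead motif GTAAACA in Txnip.
Igfbp1: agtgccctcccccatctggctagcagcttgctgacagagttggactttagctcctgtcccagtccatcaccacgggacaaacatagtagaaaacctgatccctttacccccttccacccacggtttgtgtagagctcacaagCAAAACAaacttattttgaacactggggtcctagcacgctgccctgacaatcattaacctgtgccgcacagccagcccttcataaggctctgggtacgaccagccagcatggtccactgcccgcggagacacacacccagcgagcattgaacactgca
Irs2: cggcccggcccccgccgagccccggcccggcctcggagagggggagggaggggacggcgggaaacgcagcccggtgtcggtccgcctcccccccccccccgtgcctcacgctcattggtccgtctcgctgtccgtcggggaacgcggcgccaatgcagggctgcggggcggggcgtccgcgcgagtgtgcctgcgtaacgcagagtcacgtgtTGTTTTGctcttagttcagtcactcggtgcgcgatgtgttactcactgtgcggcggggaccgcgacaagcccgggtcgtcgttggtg
Txnip: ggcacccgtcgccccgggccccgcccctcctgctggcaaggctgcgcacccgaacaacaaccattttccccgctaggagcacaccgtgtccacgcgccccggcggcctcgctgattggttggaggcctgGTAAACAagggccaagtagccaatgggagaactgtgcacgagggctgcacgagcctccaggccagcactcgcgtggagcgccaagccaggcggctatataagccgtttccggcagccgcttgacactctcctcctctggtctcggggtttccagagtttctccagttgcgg
The first capital base is at -108 in Igfbp1, -37 in Irs2 and -121 in Txnip, counted from the start of the transcript. Both motifs were searched on both strands. They share the ending AAACA, and no site can match both. CAAAACA or TGTTTTG was in 2064 of 32851 promoters (6.28%), in 4.62% of the promoters of the genes tested here and in 3 of 29 promoters of the insulin group (10.3%). GTAAACA or TGTTTAC was in 3.65% of all promoters, in 2.92% of those of the genes tested and in 2 of 29 of the insulin group (6.90%). A match only describes these letters in this window. The 3 promoters shown all hold a match, and Txnip is not in the insulin group. Of the other lower genes of that group named above, Foxo1, Foxo3, Pik3ca and Ddit4 had 0 matches of either motif. Sesn1 had 1 match of GTAAACA. Id1, Eif4ebp3 and Socs2 had no entry in the promoter table.

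Of 14 genes of gluconeogenesis 4 were lower and 0 higher at an unadjusted p under 0.05 (median -0.18), and without STZ mouse 3, 3 were called lower. Pck1, the PEP carboxykinase of the cytosol, was at 2549, 2603 and 1399.8 RPKM in STZ, 1690.1, 817 and 1386 RPKM in Con-FMT and 287, 342 and 302 RPKM in Con. STZ mouse 3 lay within the Con-FMT mice, and the log2 difference was -0.76 (SE 0.29, limma adjusted p 0.177). The coactivator Ppargc1a, which drives gluconeogenic and oxidative genes in fasting, had a log2 difference of -0.90 and Slc37a4, which carries glucose 6-phosphate into the endoplasmic reticulum, one of -0.49. G6pc, which frees glucose from its phosphate, differed the other way without passing the test, at 168, 262 and 383 RPKM in STZ and 347, 329 and 299.9 RPKM in Con-FMT. Among 21 genes of glucose uptake, glycolysis and fructose use 4 were lower and 0 higher (median -0.20), and 5 were called lower without STZ mouse 3. These were led by Eno1, an enolase, with a log2 difference of -0.69, and they included the glucose transporters Slc2a1 and Slc2a2. Slc2a2, the main hepatocyte glucose transporter, was at 192, 189 and 105 RPKM in STZ and 116, 105 and 90 RPKM in Con-FMT. Of 16 glycogen genes 1 was higher and 2 were lower, and 2 were called higher and 3 lower without STZ mouse 3. Ppp1r3g, a glycogen-targeting subunit of protein phosphatase 1 that is induced in fasting, was at 12.3, 23.1 and 2.96 RPKM in STZ and 0.88, 0.47 and 1.09 RPKM in Con-FMT, a log2 difference of -2.59 (SE 0.54, limma adjusted p 0.0699).

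Genes that glucocorticoids induce were lower in Con-FMT in 10 of 19 cases and higher in 0 at an unadjusted p under 0.05, with a median log2 difference of -0.63. For 6 of them the groups did not overlap, and without STZ mouse 3, 8 were called lower and 0 higher. Klf9, a Krüppel-like factor that the glucocorticoid receptor switches on directly, was at 25.9, 32.6 and 24.7 RPKM in STZ, 18.9, 18.4 and 20.8 RPKM in Con-FMT and 16.0, 15.8 and 14.5 RPKM in Con. Sgk1, a kinase of the same receptor's response, was at 20.9, 42.3 and 20.4 RPKM in STZ and 17.8, 10.7 and 14.7 RPKM in Con-FMT, and Zbtb16, a zinc-finger repressor, was at 3.25, 6.65 and 4.21 RPKM in STZ and 2.11, 1.74 and 2.98 RPKM in Con-FMT. STZ mouse 2 was the highest in all 3 genes. The receptor itself, Nr3c1, was at 14.1, 14.3 and 13.9 RPKM in STZ and 11.2, 12.4 and 9.91 RPKM in Con-FMT. Fkbp5, a co-chaperone that limits the receptor, overlapped, with 21.5, 29.2 and 9.97 RPKM in STZ and 9.34, 5.33 and 13.7 RPKM in Con-FMT, because STZ mouse 3 was within the transplanted mice. Sult1e1, the oestrogen sulfotransferase, was at 14.6, 43.1 and 2.71 RPKM in STZ and 3.1, 0.17 and 0.28 RPKM in Con-FMT, so Con-FMT mouse 1 was above STZ mouse 3.

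Of 20 clock genes, 6 were lower and 0 higher at an unadjusted p under 0.05 (median -0.41), and 9 were called lower without STZ mouse 3. Rora, the nuclear receptor that activates Bmal1, was at 9.35, 10.9 and 8.07 RPKM in STZ and 6.87, 5.63 and 4.98 RPKM in Con-FMT. The casein kinases Csnk1d and Csnk1e, which mark PER proteins for decay, had log2 differences of -0.31 and -0.52 without overlap. Per1, which glucocorticoids also induce, was at 16.8, 18.5 and 6.19 RPKM in STZ, 4.16, 3.95 and 7.27 RPKM in Con-FMT and 0.44, 2.34 and 1.32 RPKM in Con. Nr1d2, a repressor of the loop, was at 31.7, 28.8 and 14.1 RPKM in STZ and 17.3, 14.9 and 15.6 RPKM in Con-FMT. In Per1 and Nr1d2 STZ mouse 3 was level with the transplanted mice. The hour at which each liver was taken is not given in the sources used here.

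The growth hormone axis differed in both directions, with 4 of 14 genes higher and 6 lower (unadjusted p under 0.05) and a median log2 difference of 0.02. Without STZ mouse 3, 3 were called higher and 4 lower. Ghr, the growth hormone receptor, was at 96.6, 72.6 and 146 RPKM in STZ, 149, 179.7 and 164 RPKM in Con-FMT and 169.6, 236 and 199 RPKM in Con. Igfals, which stabilises IGF1 in serum, was at 26.5, 22.8 and 47.6 RPKM in STZ and 53.5, 60.7 and 52.96 RPKM in Con-FMT. Igf1 itself was at 90.5, 75.9 and 102 RPKM in STZ and 113, 107 and 115 RPKM in Con-FMT. All Con-FMT mice were above all STZ mice in these 3 genes, and the log2 differences were 0.70, 0.84 and 0.33. Socs2, an inhibitor of the receptor that STAT5 induces, was at 47.8, 56.9 and 25.0 RPKM in STZ and 15.1, 8.55 and 20.9 RPKM in Con-FMT, a log2 difference of -1.48 (SE 0.35, limma adjusted p 0.0726). Stat5b, the transducer of the male pulse pattern, was at 14.6, 19.5 and 16.2 RPKM in STZ and 12.5, 12.1 and 10.4 RPKM in Con-FMT. Bcl6, a repressor of female-biased genes, was at 2.06, 2.85 and 3.72 RPKM in STZ and 14.5, 13.4 and 2.9 RPKM in Con-FMT, a log2 difference of 1.33. Cux2, a factor of female liver that represses male-biased genes, was at 12.8, 9.6 and 0.75 RPKM in STZ and 1.36, 0.57 and 1.04 RPKM in Con-FMT, a log2 difference of -1.69. One mouse crossed over in each of these, Con-FMT mouse 3 in Bcl6 and STZ mouse 3 in Cux2.

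Genes with a sex bias in mouse liver had the largest median differences of the groups in either direction. STZ mouse 3 was among the Con-FMT mice for the median male-biased gene and above all of them for the median female-biased gene. Of 21 male-biased genes 9 were higher and 0 lower by the unadjusted p, with a median log2 difference of 2.28. None lay without overlap. Omission of STZ mouse 3 gave 15 higher calls and a median of 3.25. Of 22 female-biased genes 13 were lower and 0 higher, 4 without overlap, with a median of -1.87. The same omission gave 14 lower calls and a median of -2.51. Per mouse, the median male-biased gene stood at -6.28, -6.78 and -1.44 from the Con mean on the log2 scale in STZ and at -4.02, -0.88 and -1.28 in Con-FMT. Con-FMT mouse 1 was thus the lowest of its group, and STZ mouse 3 was near Con-FMT mice 2 and 3. The median female-biased gene stood at 4.99, 3.65 and 2.31 in STZ and at 2.16, 0.69 and 1.29 in Con-FMT, where STZ mouse 3 was the lowest of its group, just above Con-FMT mouse 1.

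Mup20, the pheromone darcin of male urine, was at 5.17, 11.96 and 389 RPKM in STZ, 226, 1181 and 763 RPKM in Con-FMT and 6428, 2436 and 3988 RPKM in Con. Slco1a1, an organic anion carrier of male liver, was at 3.53, 0.85 and 117 RPKM in STZ and 56.2, 82.0 and 102 RPKM in Con-FMT. Nudt7, a peroxisomal hydrolase of coenzyme A, was at 34.5, 25.8 and 255 RPKM in STZ and 149, 430.3 and 435 RPKM in Con-FMT. In all 3 genes STZ mouse 3 lay among or above the transplanted mice, and STZ mice 1 and 2 were far below. Sult2a1, a sulfotransferase of bile acids and steroids, was at 1460.5, 333 and 16.1 RPKM in STZ, 4.92, 0.43 and 0.22 RPKM in Con-FMT and 0.21, 0.07 and 0.56 RPKM in Con. Cyp2a4, a testosterone 15-alpha-hydroxylase, was at 1061, 113 and 232 RPKM in STZ and 35.2, 8.86 and 37.8 RPKM in Con-FMT. Neither overlapped, and the log2 differences were -6.54 (SE 1.55) and -3.67 (SE 0.84), with limma adjusted p of 0.0726 and 0.0726. Elovl3 and Hsd3b5, both male-biased, were at 0.12, 5.85 and 2.91 and 0.37, 21.3 and 2.12 RPKM in Con-FMT, against 209, 228 and 239 and 163, 257 and 216 RPKM in Con. These values set Con-FMT against Con only and describe no difference from STZ. Mup, Cyp2a, Cyp4a and Sult2a genes have near-identical copies that can share reads, so the values of single members are uncertain.

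**Figure D4:**
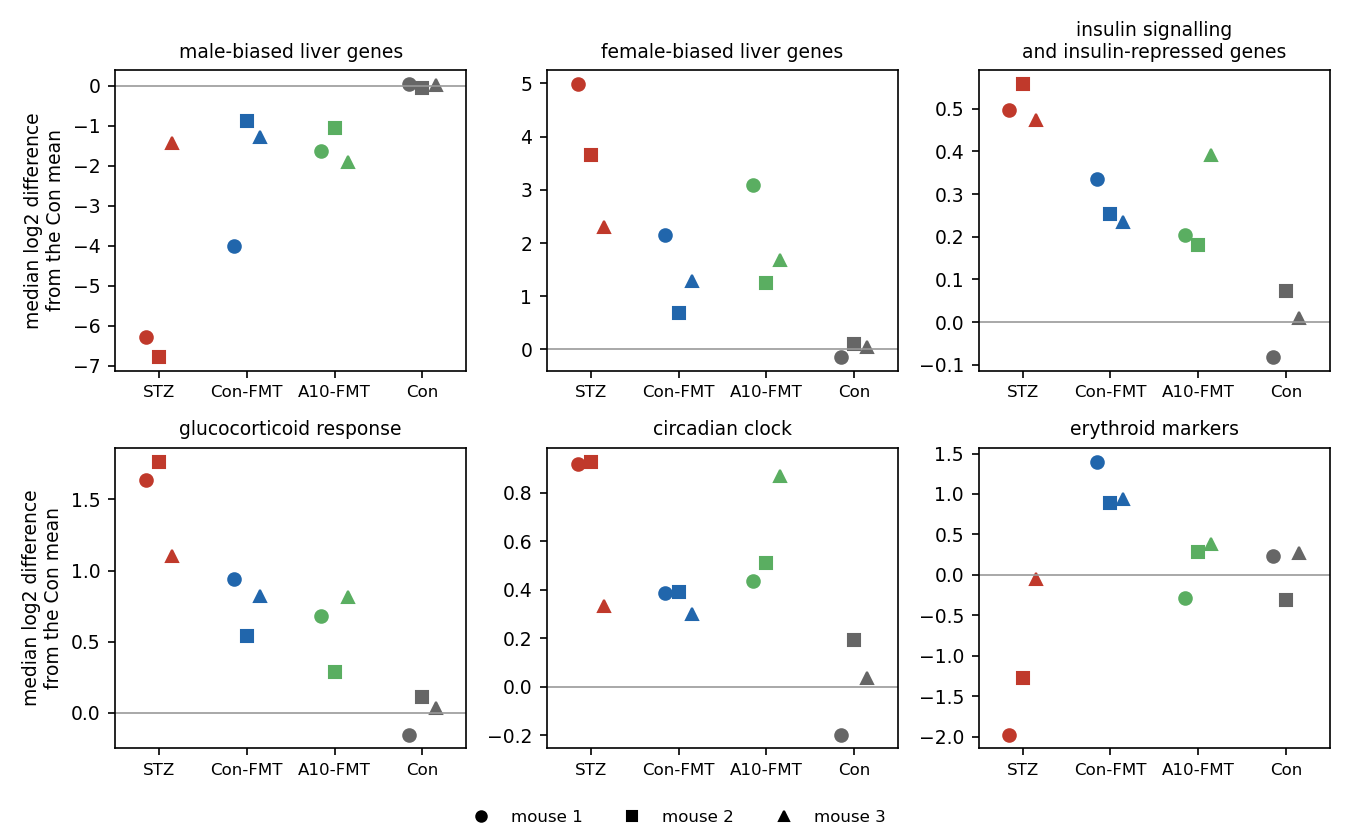
Median over the tested genes of 6 groups of the log2 difference from the mean of the 3 Con livers, for each STZ, Con-FMT, A10-FMT and Con mouse. STZ mouse 3 (red triangle) lies with the transplanted mice for male-biased and clock genes and apart from the Con-FMT mice for the insulin group, where the STZ mice are at 0.50, 0.56 and 0.47 and the Con-FMT mice at 0.34, 0.25 and 0.24.

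PPAR-alpha targets and peroxisomal oxidation genes had 11 of 31 lower and 2 higher at an unadjusted p under 0.05 (median -0.19), and 7 called lower and 2 higher without STZ mouse 3. Vnn1, a pantetheinase, was at 5.08, 4.25 and 3.71 RPKM in STZ and 2.37, 0.68 and 1.08 RPKM in Con-FMT, with 1.47, 1.19 and 1.29 RPKM in Con. The acyl-CoA thioesterases Acot1, Acot2, Acot3 and Acot4, which split long-chain acyl-CoA, had log2 differences of -1.17, -1.22, -2.35 and -0.99. Acot1 alone of these had no overlap, with 30.6, 29.97 and 48.5 RPKM in STZ and 17.4, 14.1 and 14.3 RPKM in Con-FMT, and STZ mouse 3 was its highest. The fatty acid hydroxylase Cyp4a14 was at 885, 1111 and 409 RPKM in STZ, 473, 44.8 and 271 RPKM in Con-FMT and 0.2, 0.57 and 0.55 RPKM in Con. It remained far above Con in all 3 Con-FMT mice. Fabp2 and Fabp1, which bind fatty acids in the cytosol, were the higher genes, and Fabp2 was at 28.4, 23.1 and 41.4 RPKM in STZ and 66.6, 52.98 and 52.96 RPKM in Con-FMT without overlap. Mitochondrial oxidation and ketogenesis had 2 of 24 lower and 0 higher, which is under the share of all genes, and 1 was called lower without STZ mouse 3. Cpt1a, which admits fatty acids to mitochondria, was at 163, 105 and 98.9 RPKM in STZ and 147, 72.2 and 98.0 RPKM in Con-FMT.

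Lipid synthesis showed no common direction. Of 23 genes of lipogenesis and desaturation 1 was higher and 3 were lower, with the same numbers called without STZ mouse 3. Lpin2 and Lpin1, phosphatidate phosphatases of triglyceride synthesis, were lower without overlap, Lpin2 at 66.9, 69.8 and 36.2 RPKM in STZ and 29.9, 17.2 and 28.3 RPKM in Con-FMT. Acacb, the acetyl-CoA carboxylase that restrains fatty acid oxidation, was at 8.2, 10.3 and 8.46 RPKM in STZ, 5.56, 5.92 and 5.4 RPKM in Con-FMT and 9.94, 16.8 and 13.1 RPKM in Con, so here the Con-FMT mice were farther from Con than the STZ mice. Scd1, the stearoyl-CoA desaturase, was at 30.9, 22.5 and 94.4 RPKM in STZ and 25.6, 406 and 86.0 RPKM in Con-FMT, which overlapped. Fasn and Srebf1 overlapped too, with log2 differences of 0.17 (SE 0.26) and 0.47 (SE 0.35). Among 25 genes of cholesterol synthesis and uptake and among 22 apolipoprotein and lipoprotein genes none was higher or lower at an unadjusted p under 0.05 in limma. When STZ mouse 3 was left out, 1 lipoprotein gene and 5 cholesterol genes were called lower, the latter including Lss, the lanosterol synthase, at 38.3, 23.5 and 8.19 RPKM in STZ and 16.6, 7.32 and 13.0 RPKM in Con-FMT.

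Genes of bile acid synthesis, conjugation and transport had 6 of 30 lower and 3 higher, and 4 called in each direction without STZ mouse 3. Export pumps were among the lower genes. Beside Abcc4 these were Abcb11, the canalicular bile salt pump, at 111, 172 and 133 RPKM in STZ and 99.8, 99.3 and 107 RPKM in Con-FMT, and Abcc2, the canalicular pump of conjugates, at 55.4, 65.8 and 55.1 RPKM and 50.7, 46.1 and 36.7 RPKM. Klb, beta-Klotho, the co-receptor through which the gut hormone FGF15 represses bile acid synthesis, was at 16.3, 21.3 and 11.6 RPKM in STZ and 10.9, 8.25 and 9.09 RPKM in Con-FMT. None of the 3 overlapped. Cyp39a1, an oxysterol hydroxylase, had a log2 difference of -1.88. Hsd3b7, an early enzyme of the synthesis pathway, was at 126, 155 and 219 RPKM in STZ, 272, 274 and 248 RPKM in Con-FMT and 235, 279 and 281 RPKM in Con, so it was higher without overlap. Cyp7a1, the rate-limiting enzyme, was at 75.5, 25.5 and 25.1 RPKM in STZ and 72, 27.8 and 40.1 RPKM in Con-FMT, a log2 difference of 0.24 that was under its SE of 0.40. Cyp8b1, which sets the share of cholic acid, was at 215, 119.6 and 253 RPKM in STZ and 450, 197 and 279.9 RPKM in Con-FMT.

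Xenobiotic cytochromes and their receptors had 6 of 27 lower and 0 higher at an unadjusted p under 0.05 (median -0.54). Without STZ mouse 3, 9 were called lower and 3 higher. Cyp2a5, the coumarin hydroxylase, was at 6981, 3282 and 1466 RPKM in STZ, 1419.6, 427 and 698 RPKM in Con-FMT and 42.4, 152 and 100.3 RPKM in Con, and its groups missed each other narrowly between Con-FMT mouse 1 and STZ mouse 3. Por, the reductase that feeds electrons to all microsomal cytochromes, was at 552, 447 and 187 RPKM in STZ and 202, 124 and 193 RPKM in Con-FMT. Cyp1a1, the marker of the aryl hydrocarbon receptor, was at 1.97, 3.74 and 1.29 RPKM in STZ and 1.37, 0.36 and 1.02 RPKM in Con-FMT. STZ mouse 3 overlapped the transplanted mice in both. Flavin monooxygenases and the enzymes that conjugate microbial acids and phenols had 5 of 20 lower and 0 higher, and 8 called lower and 1 higher without STZ mouse 3. Ugt1a1, the bilirubin glucuronosyltransferase, was at 388, 315 and 176 RPKM in STZ and 162, 110.2 and 137 RPKM in Con-FMT and did not overlap.

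Antioxidant and glutathione genes (4 of 33 lower, 2 higher), taurine and sulfur amino acid genes (2 of 16 lower, 2 higher) and genes of amino acid breakdown and the urea cycle (1 of 42 lower, 1 higher) had few members past the unadjusted threshold. Leaving out STZ mouse 3 gave 3 lower and 2 higher calls in the first group and 2 lower and 1 higher in each of the others. In amino acid breakdown the lower gene was Slc38a2, an amino acid carrier that starvation induces, at 45.4, 61.1 and 41.6 RPKM in STZ and 22.1, 30.6 and 36.2 RPKM in Con-FMT. The higher one was Haao, an enzyme of tryptophan breakdown, at 302, 266 and 270.2 RPKM in STZ and 402, 415 and 346 RPKM in Con-FMT. Neither overlapped. Txnrd1, a thioredoxin reductase, had a log2 difference of -0.43 and Slc6a6, the taurine carrier, one of -0.53.

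Of 29 BMP targets and iron genes 5 were lower and 0 higher at an unadjusted p under 0.05, and 5 lay below STZ without overlap. Id1 was the only one called with all mice, and 5 were called without STZ mouse 3. Smad9 and Smad1, which carry the BMP signal, were at 7.16, 6.18 and 4.23 and 4.84, 5.39 and 4.11 RPKM in STZ and at 2.42, 2.17 and 3.56 and 3.92, 3.68 and 3.53 RPKM in Con-FMT. The inhibitory Smad7 was at 3.43, 2.98 and 3.29 RPKM in STZ and 2.91, 2.26 and 1.66 RPKM in Con-FMT, and the ligand Bmp2 had a log2 difference of -0.47. Hamp, the iron hormone hepcidin and a BMP target as well, was at 7089, 4019 and 3188 RPKM in STZ and 5114, 4065 and 3244 RPKM in Con-FMT, with a log2 difference of -0.14 (SE 0.35).

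Leptin receptor, STAT3 and acute phase genes had 5 of 31 lower and 1 higher, and the same numbers were called without STZ mouse 3. Receptors of cytokines were among the lower genes. Il6ra, the interleukin 6 receptor, was at 21.6, 26.1 and 12.5 RPKM in STZ and 10.9, 9.05 and 9.16 RPKM in Con-FMT, and Il1r1, the interleukin 1 receptor, was at 18.6, 40.3 and 14.7 RPKM and 5.59, 11.2 and 10.3 RPKM. Cebpb, a transcription factor of the acute phase and of gluconeogenesis, was at 109, 82.0 and 81.2 RPKM in STZ and 61.5, 51.2 and 64.1 RPKM in Con-FMT. None of the 3 overlapped. Genes of endotoxin sensing and NF-kB feedback had 3 of 22 higher and 3 lower, against 2 calls in each direction without STZ mouse 3. The lower ones were led by the NF-kB inhibitors Nfkbiz, at 6.19, 6.49 and 7.12 RPKM in STZ and 4.35, 4.57 and 3.52 RPKM in Con-FMT, and Nfkbia, at 35.5, 47.7 and 32.0 RPKM and 24.5, 21.5 and 21.8 RPKM. In both STZ mouse 3 was on the STZ side. The higher ones were Tlr5, the flagellin receptor, at 0.59, 0.68 and 1.35 RPKM in STZ and 1.47, 1.56 and 1.72 RPKM in Con-FMT, the adaptor Ticam1 with a log2 difference of 0.39 and the NF-kB subunit Rela with one of 0.24.

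Kupffer cell and macrophage markers had 3 of 13 tested genes lower and 0 higher (median -0.36), and 3 called lower without STZ mouse 3. They summed to 216 to 451 RPKM in STZ and 175 to 262 RPKM in Con-FMT, so the sums overlapped. Marco, a scavenger receptor of Kupffer cells, was at 21.1, 67.3 and 9.67 RPKM in STZ and 13.3, 2.01 and 9.08 RPKM in Con-FMT. Lyz2, lysozyme of myeloid cells, was at 42.4, 66.0 and 21.5 RPKM and 17.9, 19.6 and 20.4 RPKM. The part of these cells in the differences of immune genes was not tested. Interferon-stimulated genes had 3 of 31 higher and 1 lower, as many as were called without STZ mouse 3. MHC class I and immunoproteasome genes had 3 of 22 higher and 1 lower, and 1 called higher and 2 lower without STZ mouse 3. The higher ones were led by Psmb9, an interferon-induced proteasome subunit, at 13.8, 9.8 and 15.6 RPKM in STZ and 25.0, 28.3 and 20.8 RPKM in Con-FMT. The 7 tested MHC class II genes had a median log2 difference of -0.34, with 6 negative and 1 positive, and none was called by limma without STZ mouse 3. H2-DMb1, which helps to load peptides, was at 2.35, 1.42 and 1.85 RPKM in STZ and 1.32, 1.05 and 1.03 RPKM in Con-FMT, lower without overlap. The positive one was H2-Eb1, a chain of the peptide receptor and the only one of the 7 at an unadjusted p under 0.05, at 1.2, 0.26 and 0.08 RPKM in STZ and 2.91, 1.09 and 1.28 RPKM in Con-FMT.

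Of 23 p53 targets and apoptosis genes 5 were lower (21.7%, against 11.9% of all genes) and 1 higher, and 4 were called lower without STZ mouse 3. Mdm2, the ligase that degrades p53, was at 15.8, 16.1 and 17.8 RPKM in STZ and 12.9, 11.8 and 13.6 RPKM in Con-FMT without overlap. Of 23 genes of the integrated stress and unfolded protein response 2 were higher and 2 lower. Herpud1, which serves the removal of misfolded proteins from the endoplasmic reticulum, was at 276, 310.2 and 171 RPKM in STZ and 118, 141 and 144 RPKM in Con-FMT, while the folding enzyme Pdia6 was at 68.8, 70.8 and 143 RPKM and 100.2, 180.4 and 156 RPKM. The counts of this group turned on STZ mouse 3, without which 7 were called higher and 1 lower. Heat shock genes had 1 of 19 higher and 0 lower, and 6 called higher without STZ mouse 3.

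None of 77 cytosolic ribosomal protein genes and none of 76 oxidative phosphorylation subunits had an unadjusted p under 0.05 in limma with all mice, while 23 and 1 of them were called lower without STZ mouse 3. Of 77 mitochondrial ribosomal protein genes 5 were higher (6.49%), and of 38 proteasome subunits 5 were higher (13.2%), with 0 lower in either and 8.37% higher among all genes. In each of these groups 7 genes lay above STZ without overlap, against 8.32% of all genes. For the 77 mitochondrial ribosomal protein genes this was near the share of all genes. Calls without STZ mouse 3 were 3 higher and 1 lower for mitochondrial ribosomal proteins and 1 higher for the proteasome, which was Psmb9. Psma1, a subunit of the core of the proteasome, was at 61.1, 54.1 and 58.1 RPKM in STZ and 71.6, 62.8 and 67.7 RPKM in Con-FMT. The hepatocyte markers, of which 13 of 14 were tested, had a median log2 difference of 0.01 and summed to 51569 to 69218 RPKM in STZ and 56996 to 67312 RPKM in Con-FMT, so the tissue was liver in all 6 mice. None of 15 T, B and NK cell markers reached the filter.

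The 2 transplants were compared directly, since A10-FMT mice had the same injection and the same dosing with other donor material. Con-FMT against A10-FMT gave 0 called genes in limma, with a smallest adjusted p of 0.999 and 294 genes (2.84%) at an unadjusted p under 0.05. All mice of one transplant lay on one side of the other in 927 of the 10356 genes. Random order of 3 against 3 mice would give a share of 0.1, so this count by itself does not set the transplants apart. Comparisons of the 2 transplants with STZ share the STZ mice, so their differences from STZ are not independent. Id1 was at 4.92, 4.86 and 3.66 RPKM in A10-FMT, and its log2 difference between the transplants was -0.10 (95% interval -0.50 to 0.29). For Lepr it was 0.29 (-0.73 to 1.30), for Txnip -0.22 (-0.79 to 0.35) and for Inhbe 0.03 (-0.93 to 1.00). These intervals do not reach the size of the difference from STZ for Id1, Lepr, Txnip and Inhbe. The same holds for the wider intervals of sex-biased genes, -1.34 (-4.73 to 2.06) for Sult2a1 and -0.14 (-2.84 to 2.56) for Mup20, which still allow a difference of several-fold between the donors. Klf9 had an interval above 0, 0.09 to 0.56 around 0.33, which did not pass the adjustment. It was at 15.5, 15.9 and 14.3 RPKM in A10-FMT, below all Con-FMT mice. Of the p53 targets and apoptosis genes 5 of 23 (Cdkn1a, Phlda3, Gdf15, Btg2 and Aen) were higher in Con-FMT than in A10-FMT at an unadjusted p under 0.05, against 2.09% of all genes, and of the glucocorticoid genes 3 of 19 (Klf9, Zbtb16 and Cdkn1a). Cdkn1a, the cell cycle inhibitor p21, was at 15.0, 9.92 and 11.6 RPKM in Con-FMT and 6.55, 4.49 and 5.23 RPKM in A10-FMT. The median log2 difference over the cholesterol genes was -0.57, and Sc5d, a desaturase late in that pathway, was at 135, 155 and 138 RPKM in A10-FMT and 117, 102 and 89.0 RPKM in Con-FMT.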

How the data were processed

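Liver mRNA of 3 mice per group was sequenced on an Illumina HiSeq instrument. The authors deposited 1 RPKM value per gene and mouse, with no pooling of mice. The methods of the study name SOAPaligner for mapping, the submitters' processing notes name Bowtie 0.12.2 and mm10, and the gene annotation is not given in the sources used here. RPKM are divided by transcript length and by mapped reads, so read depth is unknown and sampling error near 1 RPKM could not be calculated.

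Groups were taken from the sample labels. Values were analysed as log2(RPKM + 1) in 1 linear model of the 12 libraries of Con, STZ, Con-FMT and A10-FMT. The model was fitted in R 4.3.3 by lmFit of limma 3.58.1 and moderated by eBayes, with a mean-variance trend and two-sided p-values. AOS and STZ+AOS libraries were left out of it. Benjamini-Hochberg adjustment ran over all 10356 genes, and genes under an adjusted p of 0.05 are said to be called. The 12 libraries are taken as separate mice, as labelled, and p-values measure the spread between them, pooled over the 4 groups. Every SE and interval thus draws on groups outside its comparison, and the groups were not equally spread. The median male-biased gene ran from -6.78 to -1.44 in STZ and from -0.05 to 0.04 in Con. With only the STZ and Con-FMT libraries limma called 0 genes, and 1280 instead of 2096 had an unadjusted p under 0.05. Of the 19057 symbols, 8701 missed the filter of 1 RPKM in 3 of 6 libraries, 26 looked like dates and 3 were repeated. Positions come from GENCODE M21 (GRCm38), promoters from RefSeq (GRCm38.p6). Near-identical genes, and genes that overlap on opposite strands, may share reads, since the strandedness of the counting is not stated.

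Named genes are those called, the 8 higher and 8 lower genes with the smallest p among those with a 2-fold difference, no overlap and a mean of 1 RPKM or more, the 2 members of each gene group with the smallest p, and a fixed set of insulin, lipid, bile acid and iron genes. Some genes that these rules name are not reported here. Other members of a group named in the text were chosen after their values were seen. The genes, groups and rules were chosen with earlier results of these data known. The procedure was tested on simulated data. Alternatives were other scalings, pseudocounts, filters, groups in the fit, array weights, a replicate block and leaving out each mouse.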

Additional observations from a re-analysis of the deposited data

How the results depend on the processing

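The call of Id1 rested on the choice of samples and on the filter, and it held under median-ratio scaling and quantile normalization. The count of 1 called gene also moved with scaling. The count was 0 with only the STZ and Con-FMT libraries and 0 without the filter on low values, 18 with all 6 groups in the fit, 16 with 1 RPKM required in all 6 libraries, 104 (33 higher, 71 lower) after median-ratio scaling and 75 (24 higher, 51 lower) after quantile normalization. Leaving out 1 mouse at a time gave 0 to 1628 calls, 1628 without STZ mouse 3, 17 without Con-FMT mouse 1 and 0 without any one of the other four. Median-ratio scaling without STZ mouse 3, chosen after seeing the data, gave 1900. Array weights gave 1263 calls, but their estimation did not converge and gave Con mouse 3 a weight of 35.3, so this count is not relied on. At an unadjusted p under 0.05 the count of 2096 became 1280 with only the 2 groups, 3193 with array weights and 1288 to 3334 with a mouse left out. Genes without overlap numbered 2294 (without STZ mouse 2) to 4462 (without STZ mouse 3) with a mouse left out. Fewer mice leave less room for overlap, so these counts are not comparable with the 1839 of all mice. The number of mice left out was the same each time. The replicate block gave 1 call and 2007 genes at an unadjusted p under 0.05. Mice share numbers across groups but no source pairs them, the correlations of deviations of same-numbered mice were 0.494, -0.246 and 0.246, and STZ mouse 2 correlated better with Con-FMT mouse 1 than with its own number.

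Of 1347 values of 85 named genes under these alternatives, 1340 kept their direction. The 7 that reversed were uncalled values near 0 with a mouse left out, for which the log2 difference of Fasn ran from -0.069 to 0.41, of Cpt1a from -0.50 to 0.012, of Cyp7a1 from -0.12 to 0.75 and of Hamp from -0.39 to 0.19. Of 378 medians of 42 gene groups under alternatives 40 changed sign. Con-FMT against A10-FMT gave 0 calls in limma under every alternative run. The cause of these changes was not tested. Depth limits what can be said of genes near 1 RPKM, and with 3 mice per group an exact test of a single gene cannot go below 0.1.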

Other observations

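Genes of extracellular matrix and of the cell cycle belong to none of the comparisons above. Of 19 tested matrix genes 3 were lower and 1 higher in Con-FMT at an unadjusted p under 0.05, and 2 were called lower and 1 higher without STZ mouse 3. Ctgf, a matrix protein induced by TGF-beta and YAP, was at 3.22, 7.80 and 5.01 RPKM in STZ and at 1.60, 2.28 and 3.21 RPKM in Con-FMT. The groups only just missed each other, between STZ mouse 1 and Con-FMT mouse 3. Acta2, the smooth muscle actin of activated stellate cells, was at 2.30, 1.92 and 0.81 RPKM in STZ and at 0.79, 0.63 and 1.05 RPKM in Con-FMT, with STZ mouse 3 among the transplanted mice. Markers of stellate cells and fibroblasts, of which 11 were tested, had 1 lower and 0 higher. They summed to 130 to 160 RPKM in STZ and to 90.4 to 181 RPKM in Con-FMT, and their part in the matrix values was not tested. Of 13 tested cell cycle genes 2 were lower and 0 higher, and 2 were called lower without STZ mouse 3. The first 2 were Cdt1, which licenses replication origins, at 3.76, 3.84 and 1.74 RPKM in STZ and 2.09, 1.20 and 1.36 RPKM in Con-FMT, and the kinase Cdk2, with a log2 difference of -0.25.

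Markers of other tissues were few after the filter. Exocrine pancreas markers, with 1 of 15 tested, summed to 3.6 to 8.8 RPKM in STZ and 7.4 to 14.4 RPKM in Con-FMT. Endothelial markers had 0 of 12 higher or lower in limma at an unadjusted p under 0.05, and cholangiocyte markers 0 of 5. Gut epithelium had 3 of 10 markers tested, which summed with the untested ones to 48.1 to 50.6 RPKM in STZ and 59.6 to 83.4 RPKM in Con-FMT, without overlap. The one higher at an unadjusted p under 0.05 was Fabp2, which was also called without STZ mouse 3 and had the highest level of the 3, at 28.4, 23.1 and 41.4 RPKM in STZ and 66.6, 52.98 and 52.96 RPKM in Con-FMT. Fabp2 made up a large part of these sums and is also counted among the PPAR-alpha targets above. Lgals4 and Tff3, the other tested markers, overlapped and differed the other way, with log2 differences of -0.25 and -0.33. The sums without overlap therefore do not show a rise of gut markers as a set. The part of gut cells in these values was not tested. Neutrophil (2 of 11 tested), adipocyte (1 of 8) and skeletal muscle markers (1 of 8) had 0 higher or lower in limma at an unadjusted p under 0.05.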
